A study of Mus musculus with 4 samples.

Results

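The genes described here are those of the Trem2 receptor, its membrane adaptors and the cytoplasmic proteins that act just downstream of them in microglia, the resident macrophages of the brain. They were taken by gene symbol from the list of 32285 genes in the count matrices, and all 8 were found: Trem2, Tyrobp, Hcst, Syk, Plcg2, Inpp5d, Pik3ap1 and Vav1. Their RNA was counted in CD45 positive cells, that is leukocytes and microglia, sorted from 2 regions of the injured hemisphere, thalamus and hippocampus (HPC), of C57B6/J mice after a cortical brain injury, which the study made by aspiration of cortex. All cells came from injured mice, so every comparison is between regions, cell classes or microglial states, and none is with uninjured tissue. Each region was a pool from 4 mice tagged with multiplexing oligos, and was deposited as 4 count matrices, called sets below. The labels do not name a mouse for each set or give the age of the mice or the time after injury, so a p-value measures the spread between sets. Since each region made up a single droplet library, a difference between regions and one between libraries cannot be told apart.

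TREM2 is a lipid-sensing receptor on the microglial surface with no signalling tail of its own. It pairs with the adaptor DAP12, made from Tyrobp, and can also signal through DAP10, made from Hcst, which recruits phosphoinositide 3-kinase. Phosphorylated DAP12 recruits the kinase SYK, which acts on the phospholipase PLCγ2, on the adaptor BCAP made from Pik3ap1 and on VAV1, an exchange factor for RAC. SHIP1, made from Inpp5d, removes a phosphate from the lipid product of phosphoinositide 3-kinase and so restrains the pathway. Variants of TREM2, PLCG2 and INPP5D are known from Alzheimer's disease genetics, and in amyloid models the passage of microglia from a homeostatic to a disease-associated (DAM) state depends on TREM2.

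Of 29190 cells in the matrices, 24939 passed the limits on genes and mitochondrial counts, with a median of 4261.5 to 4657 unique molecular identifiers (UMIs) per cell across the 8 sets. Each cell was placed in a class by the share of a class's marker genes it held, and none of the 8 pathway genes was a marker. This gave 19483 microglia-like cells, with a median of 90% of the microglia markers detected, 2737 T-like cells, 880 neutrophil-like cells, 288 monocyte-like cells, 117 NK-like cells, 72 B-like cells, 56 dendritic-like cells and 20 border macrophage-like cells, and 1286 cells stayed unassigned. Microglia-like cells were then split by the log2 ratio of the summed UMIs of DAM markers (such as Cst7, Lpl and Spp1) to those of homeostatic markers (such as P2ry12 and Tmem119). The split gave 14971 homeostatic-like, 1394 intermediate and 2449 DAM-like cells, after 541 interferon-like and 128 cycling cells were set aside. DAM-like cells numbered 849, 342, 331 and 591 in thalamus sets 1 to 4 and 206, 64, 26 and 40 in HPC sets 1 to 4. HPC set 1 stood apart, with 84.0% homeostatic-like microglia against 91.6 to 96.0% in the other HPC sets, and 65 cell barcodes occurred in both regions. A further measure moved with the DAM-like state: 32.8% of the thalamic and 27.1% of the HPC DAM-like cells held under 40 UMIs of Malat1, a nuclear noncoding RNA, per 10,000 UMIs, against 0.353% and 0.162% of homeostatic-like cells. These are called Malat1-poor cells, and values are given with and without them.

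In the mouse genome (GRCm38), Trem2 lies on chromosome 17 at 48346401 to 48354147 on the plus strand. Tyrobp, on chromosome 7 at 30413760 to 30417585 on the plus strand, and Hcst, at 30417712 to 30419854 on the minus strand, are tail-to-tail neighbours with 126 bases between them. These 3 genes span 2.143 to 7.747 kb. The genes of the cytoplasmic proteins are longer, at 48.9 kb for Vav1, 65.6 kb for Syk, 100.2 kb for Inpp5d, 112.7 kb for Pik3ap1 and 136.9 kb for Plcg2. Promoter windows of 300 bases (250 before to 50 after the gene start, RefSeq, GRCm38.p6) were found for 7 of the 8 genes. Shown are those of the receptor and an adaptor, both higher in DAM-like cells, and of the phosphatase gene Inpp5d, which was lower there. They are chr17:48346151-48346450, plus strand, chr7:30419805-30420104, minus strand, and chr1:87620062-87620361, plus strand. Capitals mark GAGGAA, the core of the motif of the myeloid factor PU.1, or its reverse complement TTCCTC.
Trem2: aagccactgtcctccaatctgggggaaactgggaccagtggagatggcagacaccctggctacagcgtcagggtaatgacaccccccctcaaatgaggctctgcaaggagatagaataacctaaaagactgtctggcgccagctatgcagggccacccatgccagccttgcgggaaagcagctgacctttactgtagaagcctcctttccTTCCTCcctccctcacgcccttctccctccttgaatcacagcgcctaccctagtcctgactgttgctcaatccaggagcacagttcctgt
Hcst: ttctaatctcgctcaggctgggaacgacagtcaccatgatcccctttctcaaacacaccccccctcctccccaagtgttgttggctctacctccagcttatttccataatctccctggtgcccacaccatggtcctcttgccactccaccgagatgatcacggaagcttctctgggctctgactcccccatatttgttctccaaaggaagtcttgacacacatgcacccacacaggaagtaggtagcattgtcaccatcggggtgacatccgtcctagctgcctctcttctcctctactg
Inpp5d: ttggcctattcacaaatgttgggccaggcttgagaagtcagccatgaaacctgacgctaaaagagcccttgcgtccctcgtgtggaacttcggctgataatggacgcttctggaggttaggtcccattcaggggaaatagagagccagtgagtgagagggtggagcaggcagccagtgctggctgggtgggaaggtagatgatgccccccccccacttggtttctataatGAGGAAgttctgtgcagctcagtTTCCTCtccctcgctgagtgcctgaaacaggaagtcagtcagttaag
The Trem2 window held 1 match, the Hcst window none and the Inpp5d window 2, and 28.3% of 32851 windows of the same length held at least 1 on either strand. A match describes letters only.

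Levels are given as UMIs of a gene per 10,000 UMIs of all genes, summed over the cells of a class. The counts come from 3′ libraries and were not scaled by gene length. Levels are therefore compared between cells for 1 gene and not between genes. Trem2, the receptor gene, was mostly microglial. Summed over both regions its level was 21.3 per 10,000 in microglia-like cells (95% exact Poisson interval 21.2 to 21.4), 6.75 in the 20 border macrophage-like cells (5.04 to 8.85), 1.75 in monocyte-like (1.58 to 1.95), 1.60 in neutrophil-like (1.42 to 1.80), 0.890 in T-like (0.834 to 0.949) and 0.865 in NK-like cells (0.628 to 1.16). These intervals cover counting error only. The intervals of monocyte-like and neutrophil-like cells overlap, as do those of T-like and NK-like cells. T cells should lack Trem2, so their level serves as background. Whether it came from free RNA in droplets or from doublets was not tested. With every cell thinned to 2000 UMIs, 96.5% of 18541 microglia-like cells held a Trem2 UMI against 16.5% of 2648 T-like cells, whose median UMIs per cell before thinning were 4680 and 3547. Without thinning the microglial share was 98.9%.

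The adaptor genes were shared with other leukocytes. Tyrobp reached 54.0 per 10,000 in neutrophil-like cells (52.9 to 55.1) and 24.9 in monocyte-like cells (24.3 to 25.6), against 19.8 in microglia-like, 19.7 in NK-like and 1.12 in T-like cells. Its intervals in microglia-like and NK-like cells overlap. Hcst, whose product also serves the receptor NKG2D on NK and T cells, was highest in NK-like cells at 3.46 (2.97 to 4.01) and T-like cells at 3.39 (3.28 to 3.501), which do not differ beyond counting error, and was 1.74 in neutrophil-like and 0.269 in microglia-like cells.

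The downstream genes also reached other classes. Syk was 6.37 per 10,000 in neutrophil-like cells, 2.79 in B-like cells and 2.56 in monocyte-like cells, against 1.64 in microglia-like and 0.037 in T-like cells. Plcg2, at 2.68 in microglia-like cells, was 2.01 in monocyte-like, 1.62 in B-like and 0.056 in T-like cells. Inpp5d was highest in microglia-like cells, at 14.4, with 7.78 in neutrophil-like and 2.99 in T-like cells. T cells signal through ZAP70 and PLCγ1, made from other genes than Syk and Plcg2. Pik3ap1 was 3.85 in neutrophil-like and 3.43 in microglia-like cells, and within microglia it was highest in the interferon-like state, at 5.57. Vav1 was 2.98 in neutrophil-like, 2.22 in microglia-like and 0.878 in T-like cells.

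**Figure D1:**
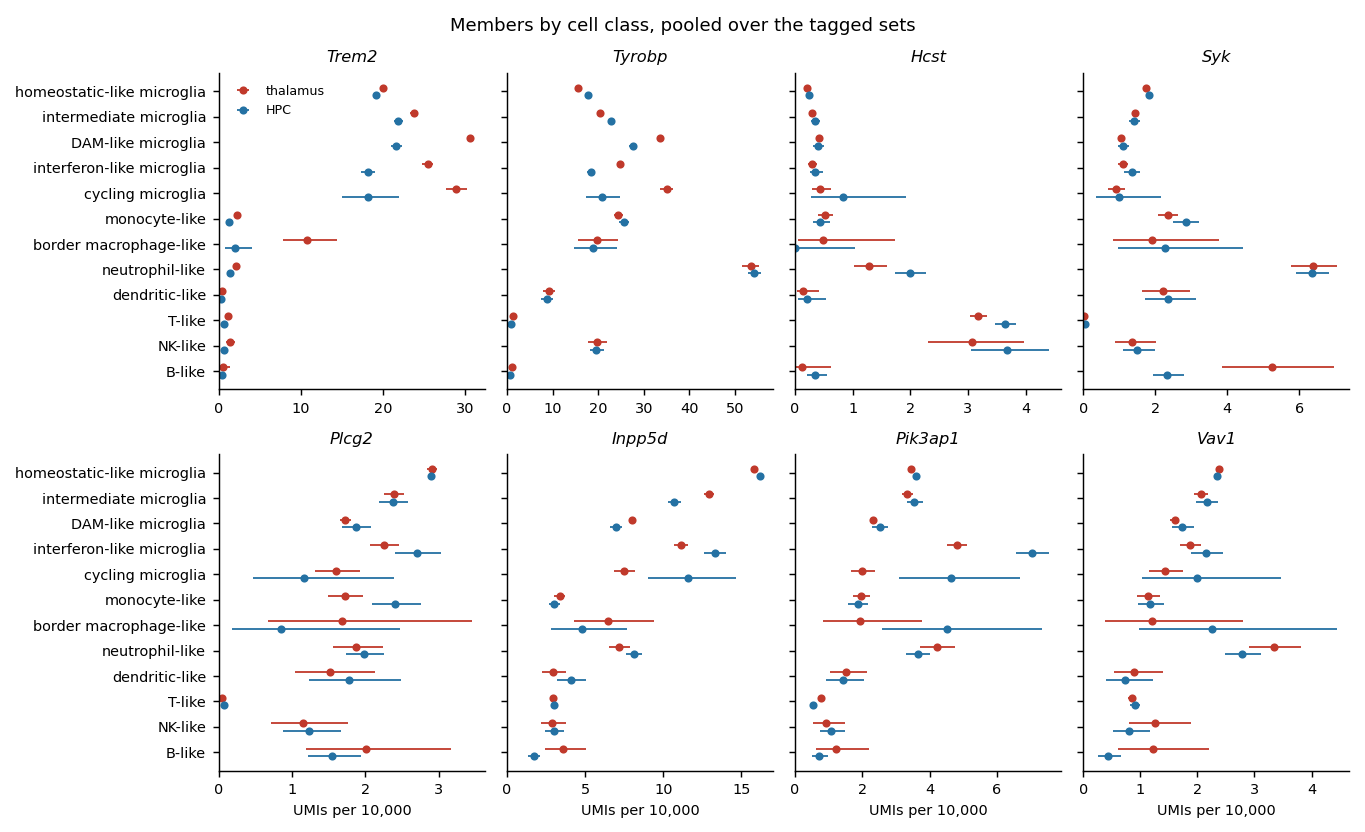
Level of each of the 8 genes, in UMIs per 10,000 UMIs, in the microglial states and other marker-gated classes, as the value summed over the sets of a region (thalamus red, HPC blue) with its 95% exact Poisson interval. Trem2 is highest in microglia, Tyrobp and Syk in neutrophil-like cells, and Hcst in NK-like and T-like cells.

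Within microglia, the 8 genes split between the membrane part and the cytoplasmic part of the pathway. Tested over the 8 sets, the receptor and both adaptor genes were higher in DAM-like than in homeostatic-like cells. Syk, Plcg2, Inpp5d, Pik3ap1 and Vav1 were lower, though not every gene kept its direction in every set. All 8 genes passed the filter on low counts and all 8 passed the test (edgeR quasi-likelihood F-test with the set as a block, Benjamini-Hochberg adjusted p under 0.05), at a background of 53.0% of 11524 genes called in either direction, 22.8% higher and 30.2% lower. The states were set by UMIs of other genes in the same cells.

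Trem2 in homeostatic-like cells was 19.8, 19.2, 19.6 and 21.1 per 10,000 in thalamus sets 1 to 4, and in DAM-like cells of the same sets it was 30.4, 27.1, 34.6 and 30.7. In HPC sets 1 to 4 it was 19.9, 18.9, 18.1 and 19.5 in homeostatic-like cells and 22.9, 18.5, 21.01 and 20.5 in DAM-like cells. Trem2 was thus higher in DAM-like cells in 7 of 8 sets, by a wide margin in every thalamic set and by little or not at all in the HPC. Over the 8 sets the DAM-like cells were higher by 0.56 ± 0.09 on the log2 scale (SE; edgeR adjusted p = 1.22e-05), and by 0.42 without Malat1-poor cells. Without those cells Trem2 was higher in 6 of 8 sets, and the HPC means were 19.7 in DAM-like and 19.1 in homeostatic-like cells.

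Tyrobp was 15.6, 15.1, 15.6 and 16.02 per 10,000 in the homeostatic-like cells of thalamus sets 1 to 4 and 34.5, 28.9, 37.6 and 32.5 in their DAM-like cells. In the HPC it went from 19.2, 16.6, 17.9 and 17.3 to 30.2, 23.6, 24.4 and 23.8. The DAM-like cells were higher in all 8 sets, and in neither region did the states overlap, as for 27.5% of all genes tested and 5 of the 8 (Tyrobp, Syk, Plcg2, Inpp5d and Vav1). The log2 difference was 1.00 ± 0.10 (SE; edgeR adjusted p = 6.88e-09), and 0.71 without Malat1-poor cells. Hcst was 0.240, 0.177, 0.178 and 0.234 in thalamic homeostatic-like cells and 0.399, 0.408, 0.454 and 0.420 in thalamic DAM-like cells. In the HPC it was 0.294, 0.242, 0.208 and 0.216 in homeostatic-like and 0.468, 0.394, 0.271 and 0.156 in DAM-like cells, the last from 4 UMIs. Hcst was higher in DAM-like cells in 7 sets, with a log2 difference of 1.07 ± 0.12 (SE; edgeR adjusted p = 5.66e-08), and 0.74 without Malat1-poor cells. With up to 5% mitochondrial counts allowed in place of 2%, the differences were larger, at 0.81 for Trem2, 1.41 for Tyrobp and 1.48 for Hcst.

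Inpp5d showed the largest decrease of the 8. In the thalamus it was 14.8, 15.5, 16.2 and 16.4 per 10,000 in homeostatic-like cells and 7.77, 8.10, 7.71 and 8.32 in DAM-like cells. In the HPC it was 13.6, 17.2, 17.6 and 17.5 against 6.47, 7.28, 9.56 and 7.26. No DAM-like value came near a homeostatic-like one, and the ratio of the states within a set ran from 0.415 to 0.543. The log2 difference was −0.85 ± 0.06 (SE; edgeR adjusted p = 1.69e-10), and −0.70 without Malat1-poor cells.

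Syk was 1.75, 1.75, 1.91 and 1.65 per 10,000 in thalamic homeostatic-like cells and 1.12, 1.13, 0.869 and 1.04 in DAM-like cells. In the HPC it was 1.74, 1.87, 1.93 and 1.77 against 0.990, 1.55, 1.22 and 0.898. The DAM-like cells were lower in all 8 sets and the states did not overlap in either region, with a log2 difference of −0.53 ± 0.08 (SE; edgeR adjusted p = 4.43e-06). Plcg2 was 2.74 to 3.06 in homeostatic-like cells of the 8 sets and 1.62 to 2.39 in DAM-like cells, lower in all 8 (log2 difference −0.48, edgeR adjusted p = 2.49e-06). Pik3ap1 ran from 3.07 to 4.19 in homeostatic-like and from 2.12 to 3.39 in DAM-like cells, lower in 7 sets (log2 difference −0.35, edgeR adjusted p = 0.000168). Vav1 ran from 2.27 to 2.56 and from 1.22 to 2.25, lower in all 8 sets (log2 difference −0.31, edgeR adjusted p = 0.00111). Without Malat1-poor cells these 4 differences were −0.39, −0.34, −0.21 and −0.19, and Vav1 was lower in 7 of 8 sets. All 8 genes still passed the test without those cells, at a background of 22.9% of all genes called higher and 19.8% lower. With DAM-like cells limited to a log2 ratio of at most 2, Pik3ap1 (−0.17, edgeR adjusted p = 0.0542) and Vav1 (−0.13, edgeR adjusted p = 0.173) no longer passed, and Syk had −0.34 and Plcg2 −0.32. With states taken from clusters Vav1 missed (−0.15, edgeR adjusted p = 0.0724), and Inpp5d was −0.51, Plcg2 −0.28 and Pik3ap1 −0.21.

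Scaling bears on this split. With total counts in place of TMM factors the median of all genes moved from −0.09 to −0.30, and the calls moved from 2626 higher and 3483 lower (43.0% higher) to 1776 higher and 5515 lower (24.4% higher). The 8 genes kept their directions and all passed under both, with 15.4% of all genes called higher and 47.9% lower for total counts. The differences with total counts were 0.38 for Trem2, 0.82 for Tyrobp, 0.87 for Hcst, −0.73 for Syk, −0.68 for Plcg2, −1.04 for Inpp5d, −0.54 for Pik3ap1 and −0.50 for Vav1.

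**Figure D2:**
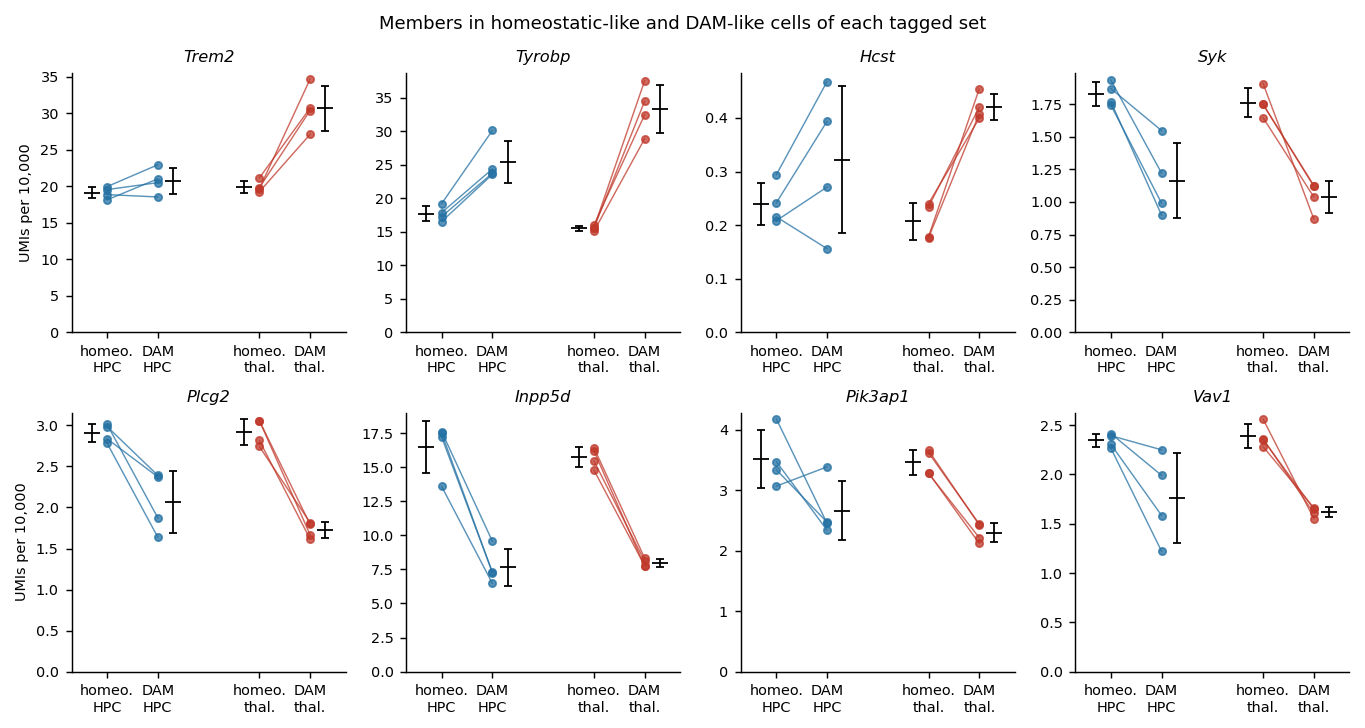
Level of each gene, in UMIs per 10,000 UMIs, in the homeostatic-like and DAM-like cells of each set (HPC blue, thalamus red), with a line joining the states of a set and the mean and SD over 4 sets beside the points. Trem2 rises in every thalamic set and little in the HPC, and Inpp5d goes from 13.6 to 17.6 in homeostatic-like cells to 6.47 to 9.56 in DAM-like cells.

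Ordering microglia by the log2 ratio of DAM to homeostatic markers, in 7 bins from below −3 to above 2, showed how the receptor and adaptor genes moved along it. In the thalamus the mean Trem2 level over sets went from 16.6 per 10,000 in the lowest bin through 18.6, 21.03, 23.0, 25.2 and 28.4 to 34.4 in the highest. In the HPC it went from 17.0 through 19.3 and 21.2 to 22.0 in the fourth bin, and was then 21.7 (3 sets), 19.9 (2 sets) and 24.6 (1 set). The regions had like Trem2 levels in the lower bins and separated in the upper ones. Tyrobp went from 12.7 to 41.7 in the thalamus, and in the HPC from 15.8 to 38.3 (1 set), and in the sixth bin the regions held 27.9 and 25.7 (2 HPC sets). Inpp5d went the other way, from 17.4 to 5.48 in the thalamus and in the HPC from 17.6 to 6.57 in the sixth bin (2 sets) and 3.58 in the seventh (1 set). In the highest thalamic bin 49.8% of the cells were Malat1-poor. Without them the mean of that bin was 28.6 ± 2.40 for Trem2 (SD, n = 4 sets), 28.5 for Tyrobp and 7.37 for Inpp5d. The bins were set from markers in the same cells, and these values are given without a test.

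**Figure D3:**
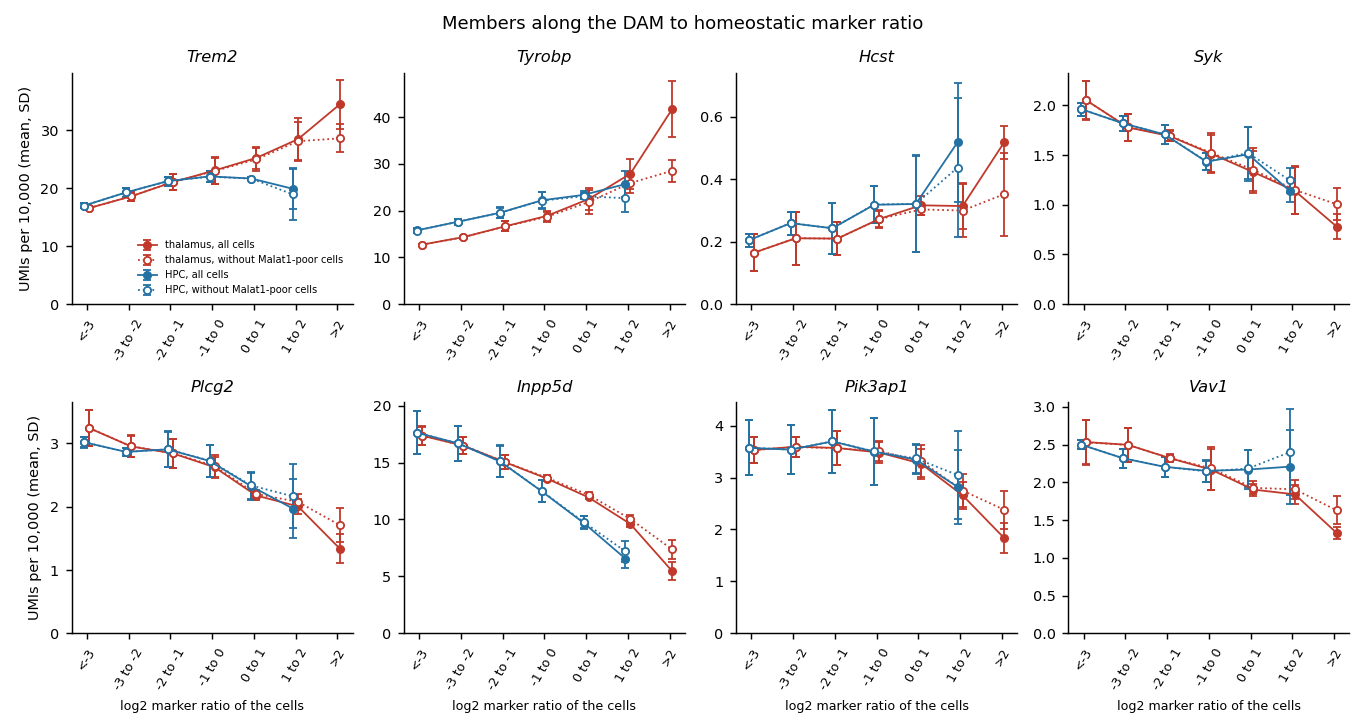
Mean and SD over sets of each level (UMIs per 10,000 UMIs) against bins of the log2 ratio of DAM to homeostatic marker UMIs, for thalamus (red) and HPC (blue), with all cells (solid) and without Malat1-poor cells (dotted). Trem2 reaches 34.4 in the highest thalamic bin, where the HPC has 1 set and is not drawn, and Inpp5d falls in both regions.

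The Malat1-poor cells held the ends of these ranges. In the 694 Malat1-poor DAM-like cells of the thalamus, Trem2 was 48.2 ± 5.65 per 10,000 (SD, n = 4 sets), Tyrobp 75.3 ± 9.56 and Hcst 0.93 ± 0.13. The downstream genes were near the bottom of their scale in the same cells, with means of 0.31 for Syk, 0.42 for Plcg2, 0.70 for Inpp5d, 0.52 for Pik3ap1 and 0.59 for Vav1. In the 70 such cells of HPC set 1, Trem2 was 29.3 and Tyrobp 55.8. Gene length moved with the state difference over all genes: the median log2 difference was 0.14 for genes under 3 kb, 0.07 from 3 to 10 kb, −0.06 from 10 to 30 kb, −0.17 from 30 to 100 kb, −0.22 from 100 to 300 kb and −0.28 above 300 kb. Without Malat1-poor cells the end medians were 0.13 and −0.10. The receptor and adaptor genes are short and the 5 downstream genes are long, and the part of length or of Malat1-poor cells in their split was not tested.

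**Figure D4:**
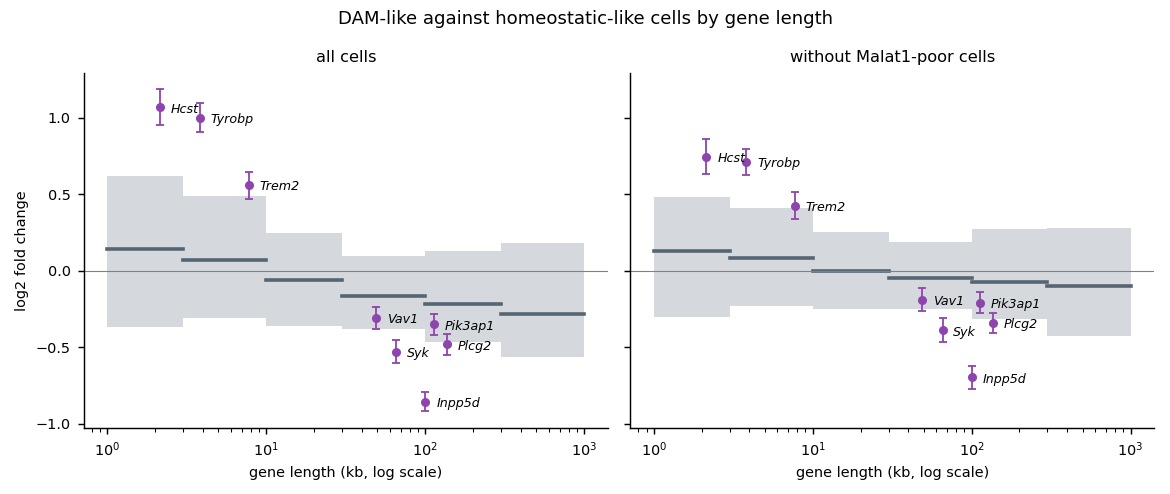
Log2 difference between DAM-like and homeostatic-like cells against gene length in kb (log axis), with all cells and without Malat1-poor cells. Lines are the medians and shading the quartiles of all genes in a length bin, and points with SE are the 8 genes. Hcst, Tyrobp and Trem2 lie above the medians of their bins, while Syk, Plcg2, Inpp5d, Pik3ap1 and Vav1 lie below theirs.

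The study set the thalamus against the HPC, so each gene was next compared between regions. Over all microglia-like cells Trem2 was 24.8, 21.1, 23.4 and 24.5 per 10,000 in thalamus sets 1 to 4 and 20.2, 18.9, 18.3 and 19.6 in HPC sets 1 to 4. Every thalamic set lay above every HPC set, and over all genes tested 21.6% had sets that did not overlap between the regions. The log2 difference was 0.35 ± 0.09 (SE; edgeR adjusted p = 0.0325), and Trem2 was the 1 gene of the 8 that passed, at a background of 14.3% of 13076 genes called, 9.20% higher and 5.12% lower in the thalamus. Over all genes, calls were 1203 higher and 670 lower (64.2% higher), and 926 and 1097 (45.8% higher) with total counts. Trem2 did not pass without Malat1-poor cells (0.25, edgeR adjusted p = 0.0782), or without the 5% of cells with most UMIs (edgeR adjusted p = 0.0572). It also lost the call without thalamus set 1, 3 or 4 or HPC set 2, 3 or 4 (edgeR adjusted p = 0.054 to 0.100), and kept it without thalamus set 2 or HPC set 1.

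Tyrobp over all microglia-like cells was 24.4, 18.6, 21.1 and 21.6 in the thalamic sets, against 20.1, 16.9, 18.1 and 17.8 in HPC sets 1 to 4, and only thalamus set 2 fell within the HPC range (log2 difference 0.30, edgeR adjusted p = 0.109). Syk was 1.41, 1.58, 1.62 and 1.41 against 1.66, 1.84, 1.92 and 1.72, with every thalamic set below every HPC set (−0.18, edgeR adjusted p = 0.0547). Vav1 also did not overlap, at 2.08, 2.12, 2.08 and 2.11 against 2.25, 2.38, 2.25 and 2.38 (−0.08, edgeR adjusted p = 0.267). Plcg2 (−0.13), Inpp5d (−0.21), Pik3ap1 (−0.09) and Hcst (0.19) overlapped between regions. Without Malat1-poor cells Tyrobp differed by 0.10 (edgeR adjusted p = 0.535) and Hcst by 0.015 (edgeR adjusted p = 0.965). With up to 5% mitochondrial counts allowed, Tyrobp differed by 0.46 (edgeR adjusted p = 0.0355), beside 20.2% of all genes called. With the set number as a block, 5 of the 8 passed, at a background of 17.0% of all genes called higher and 13.1% lower: Trem2 (edgeR adjusted p = 0.00105) and Tyrobp (0.00197) were higher in the thalamus, and Syk (0.00454), Plcg2 (0.030) and Inpp5d (0.00794) were lower. The share of DAM-like cells also differed between the regions: it was 35.5, 18.8, 17.3 and 23.8% of microglia in thalamus sets 1 to 4, against 5.74, 1.98, 1.32 and 1.90% in HPC sets 1 to 4.

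Within homeostatic-like cells none of the 8 genes passed, with or without the block, at a background of 1.04% of 12425 genes called without it and 7.17% with it. Trem2 differed by 0.06 (edgeR adjusted p = 0.752). Tyrobp did not overlap between the regions, with 15.1 to 16.02 in the thalamus below 16.6 to 19.2 in the HPC (−0.19, edgeR adjusted p = 0.278; 0.0652 with the block), at a background of 8.81% of these genes whose sets did not overlap. At an unadjusted p under 0.05 were 1 of the 8, Tyrobp (edgeR unadjusted p = 0.0285), and 14.5% of all genes, and DESeq2 called none of the 8.

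Within DAM-like cells Trem2 was higher in the thalamus, at 27.1 to 34.6 per 10,000 against 18.5 to 22.9 in the HPC. The means were 30.7 and 20.7, every thalamic set lay above every HPC set (7.98% of all genes tested did not overlap), and the log2 difference was 0.59 ± 0.11 (SE; edgeR adjusted p = 0.0112; 0.000682 with the block). Trem2 was the 1 of 8 that passed, at a background of 1.81% of 9379 genes called, 1.14% higher and 0.672% lower. Without Malat1-poor cells its means were 27.5 and 19.7 and the difference was 0.47 (edgeR adjusted p = 0.0239). With equal numbers of cells, 26 per set, it was 0.78 (edgeR adjusted p = 0.00706), and it lost the call without HPC set 2 (edgeR adjusted p = 0.0555). Tyrobp was 28.9 to 37.6 in the thalamus and 23.6 to 30.2 in the HPC, where set 1 reached into the thalamic range (0.41, edgeR adjusted p = 0.095). It passed with the block (edgeR adjusted p = 0.023, at a background of 1.87% called higher) and was 0.17 without Malat1-poor cells (edgeR adjusted p = 0.565). The other 6 genes overlapped between regions, with log2 differences from −0.18 for Plcg2 to 0.12 for Hcst and Inpp5d.

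Beside this result, marker sums also differed in the DAM-like cells. The DAM markers summed to 159 to 324 per 10,000 in the thalamic sets against 104 to 119 in the HPC sets, while the microglia markers to 212 to 242 and 158 to 188. Monocyte markers summed to 23.3 to 30.1 and 16.3 to 55.9, and border macrophage markers to 1.76 to 2.56 and 1.48 to 4.81. Without cells that held 30% of either of the last 2 lists, Trem2 differed by 0.56 (edgeR adjusted p = 0.0103). With DAM-like cells limited to a log2 ratio of at most 2, it differed by 0.41 (edgeR adjusted p = 0.0392) and Tyrobp by 0.09.

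**Figure D5:**
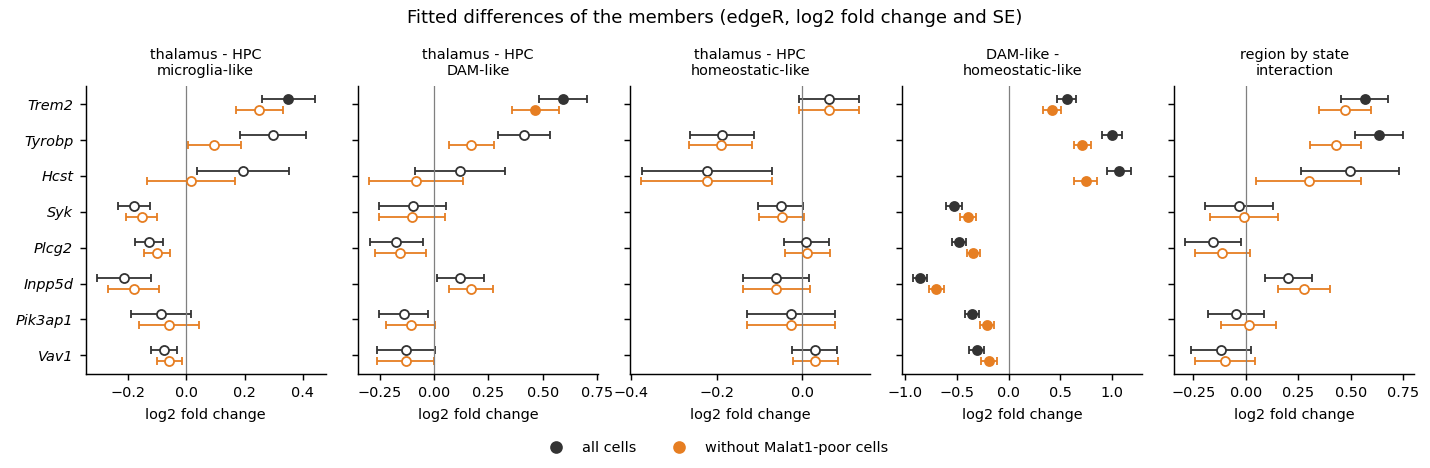
Log2 differences of the 8 genes with their SE (edgeR) in the region contrasts, the state contrast and the interaction, with all cells (dark) and without Malat1-poor cells (orange), filled where the adjusted p is under 0.05. With all cells all 8 genes are filled in the state contrast, Trem2 alone in the microglia-like and DAM-like region contrasts, and Trem2 and Tyrobp in the interaction.

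Whether the region difference itself differed between the states was tested by an interaction term. It was 0.57 ± 0.11 for Trem2 (SE; edgeR adjusted p = 0.0102) and 0.64 ± 0.11 for Tyrobp (SE; edgeR adjusted p = 0.00408), so the thalamus minus HPC difference was higher in DAM-like than in homeostatic-like cells. For Trem2 it went from 0.06 in homeostatic-like to 0.59 in DAM-like cells, and for Tyrobp it changed sign, from −0.19 to 0.41. These were 2 of the 8 genes, at a background of 0.686% of 11524 genes called, 0.364% higher and 0.321% lower. Hcst had 0.50 (edgeR adjusted p = 0.521) and the 5 downstream genes lay between −0.16 and 0.20. Without Malat1-poor cells neither passed (Trem2 0.47, edgeR adjusted p = 0.0953; Tyrobp 0.43, edgeR adjusted p = 0.127), and with the log2 ratio limited to 2 neither passed (0.43 and 0.34). Trem2 also missed without thalamus set 3 (edgeR adjusted p = 0.0747).

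In interferon-like microglia, a state marked by genes such as Ifit3 and Isg15, Trem2 was 25.9, 23.2, 23.6 and 26.3 per 10,000 in thalamus sets 1 to 4 and 16.6, 19.1, 21.7 and 18.6 in HPC sets 1 to 4. Tyrobp was 26.4, 20.6, 23.2 and 24.0 against 18.1, 17.6, 20.4 and 18.4. Neither gene overlapped between regions in this state, which held 26 to 165 cells per set, and no test was run. The other 6 genes overlapped, and of 5952 genes with at least 10 UMIs in 4 sets 9.17% did not. Malat1-poor cells were 7.58% of these cells in the thalamus and 1.01% in the HPC. Without them the means were 24.2 and 18.9 for Trem2 and 22.6 and 18.4 for Tyrobp, and both genes again did not overlap, beside 9.29% of all genes. In T-like cells, where Trem2 stands for background, the mean over sets was 1.20 ± 0.21 in the thalamus and 0.609 ± 0.16 in the HPC (SD, n = 4 sets; two-sided exact permutation test p = 0.0286, the smallest that 4 against 4 sets allow, adjusted p = 0.114 over 8 genes). Tyrobp had 1.42 and 0.689 with the same p-values, and none of the 8 passed after adjustment.

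The neighbourhood of the pathway was read from 6 lists of 96 further genes, none of them a marker. In the state contrast 86 were tested, of which 28 rose and 47 fell, beside 22.8% of all genes higher and 30.2% lower, with a median log2 difference of −0.25 against −0.09 over all genes. Of 15 genes of phospholipase, calcium and protein kinase C signalling 2 were higher and 13 lower, and of 18 genes of phosphoinositide 3-kinase, AKT and mTOR signalling 3 were higher and 11 lower. Of 21 proximal kinases, adaptors and phosphatases 7 were higher and 11 lower, and of 15 VAV, RAC and actin genes 8 were higher and 6 lower. Among 8 tested genes for TREM2 ligands and shedding 4 were higher and 3 lower, and among 9 for other adaptors and paired receptors 4 and 3. Without Malat1-poor cells 27 of the 86 rose and 32 fell, beside 22.9% and 19.8% of all genes, with a median of −0.11 against −0.01 over all genes. By list, 2 phospholipase, calcium and protein kinase C genes were then higher and 9 lower, and 4 phosphoinositide 3-kinase, AKT and mTOR genes higher and 6 lower. Of the proximal list 7 were higher and 5 lower, of the VAV, RAC and actin list 6 and 6, and of the last 2 lists 4 and 3 each.

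The largest increases were Lgals3, for galectin-3, a reported TREM2 ligand (5.96, edgeR adjusted p = 2.87e-17), Cd300lb, for a receptor that pairs with DAP12 (4.08, 2.52e-11), Vav3, a relative of Vav1 (2.90, 2.74e-06), and Apoe, for a lipoprotein that TREM2 binds (2.80, 9.42e-11). The largest decreases were Siglech, for a receptor that also uses DAP12 (−2.03, edgeR adjusted p = 2.51e-12), Prkca, a protein kinase C (−1.89, 3.16e-14), Elmo1, which acts with DOCK2 on RAC (−1.15, 1.24e-12), and Dok3, an inhibitory adaptor (−1.04, 3.70e-08). Genes for partners of the same adaptor thus moved in both directions.

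Between regions, over all microglia-like cells, 15 of 89 tested genes of these lists were higher in the thalamus and 10 lower, beside 9.20% and 5.12% of all genes, with a median of −0.05 against −0.01 over all genes. With the set number as a block 27 were higher and 23 lower, beside 17.0% and 13.1% of all genes. Without Malat1-poor cells 13 of 88 were higher and 6 lower, beside 880 and 458 of all 12993 genes tested. Lgals3 (2.35, edgeR adjusted p = 0.00589), Cd300lb (1.93, 0.00316), Clu, for clusterin (1.69, 0.0232), and Anxa5, for annexin A5 (1.54, 0.00542), were highest. Plcg1, for the phospholipase of T cells (−0.55, edgeR adjusted p = 0.0148), the kinase gene Src (−0.37, 0.0464), Pik3r5, for a regulatory subunit of phosphoinositide 3-kinase (−0.37, 0.00589), and Sort1, for sortilin (−0.32, 0.0135), were lowest. Within DAM-like cells 2 of 83 were higher and 0 lower, beside 1.14% and 0.672% of all genes, and with the block 4 were higher and 1 lower, beside 1.87% and 1.29%. In the interaction 1 of 86 was higher and 2 were lower, beside 0.364% and 0.321% of all genes.

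Over 22 class-by-region points and 11375 genes, the genes whose levels followed each of the 8 most closely were found by Pearson correlation of log2(CPM + 1), as a description, since the points share libraries and classes. Trem2 went with the complement genes C1qa (0.991, itself a microglia marker used in the gate), C1qb (0.990) and C1qc (0.988). Tyrobp went with Fcer1g (0.983), the gene for another adaptor with the same kind of signalling motif, then Gm20528 and Plek. Hcst went with Rnf125 (0.907), Gfi1 and Sf3b2, and Syk with Nedd4l (0.869), Baz2b and Tdrd7. Plcg2 went with the transcription factor gene Hhex (0.954), Nedd4l and the kinase gene Lyn, and Inpp5d with Plcl2 (0.978), the gate marker P2ry12 and Med12l. Pik3ap1 went with Lpcat2 (0.958), Scarb2 and Wdfy3, and Vav1 with Med12l (0.922), Anks1 and Acap2.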

How the data were processed

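The authors deposited raw UMI counts per gene and cell (10x 3′ v3.1 libraries) in 8 matrices, 4 for each region, together with counts of the multiplexing oligos. Per the file headers they were made with Cell Ranger 7.1.0, and the study's methods name an earlier version and the mouse build GRCm38. Whether intronic reads were counted is not given in the sources used here. Cells with 200 to 7500 genes and at most 2% mitochondrial counts were kept. The kept cells held 9789875 to 26636526 gene UMIs per set. A class needed at least 30% of its markers, a lead of 10 points and under 50% for any other class, and 123 of 124 markers were matched. No doublet caller was run, and doublets within a set were removed only as far as these limits do. DAM-like cells had a log2 ratio of DAM to homeostatic marker UMIs per 10,000 (1 added to each) of at least 0.5 and homeostatic-like cells of at most −0.5, interferon-like cells at least 5 and cycling cells at least 3 markers of their lists. There were 588 cells within 0.25 of the DAM-like limit and 1028 within 0.25 of the homeostatic-like one.

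Counts were summed per set (at least 20 cells) and tested with edgeR 4.0.16 in R 4.3.3 (quasi-likelihood F-test, TMM factors, filterByExpr, Benjamini-Hochberg over all genes tested, threshold 0.05), and with DESeq2 1.42.0 as an alternative. The sets carry numbers 1 to 4 in both regions, and same-numbered sets deviated together over genes (r = 0.504, 0.139, 0.478 and 0.134). Between sets of unlike number r ran from −0.466 to 0.124. The labels do not say that equal numbers mark a pair. The main region tests and the test in T-like cells took the sets as unpaired. Values with the number as a block rest on an assumed pairing, and are given beside results whose call it changes. The genes described, the other gene lists and the state limit were chosen with earlier results of these data known. Genes named from the 6 lists were the called ones with the largest differences, up to 4 in each direction in the microglia-like region contrast and in the state contrast, and for each of the 8 genes the 3 closest by correlation among genes with at least 20 CPM at 1 point. Promoter sequences are from RefSeq.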

Additional observations from a re-analysis of the deposited data

Results flagged for a closer look

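The levels of the 8 genes were examined for a set far from the other 3 of its region and state, in 96 groups of 4 sets, of which chance alone gives about 5%. There were 8 such sets. HPC set 1 had the lowest Inpp5d over all microglia-like cells (12.8 per 10,000) and in homeostatic-like cells (13.6), and the highest Tyrobp in DAM-like cells (30.2). HPC set 3, with 25 or 26 cells in each of the states concerned, was far from the others for Hcst (0.0887) and Plcg2 (3.37) in intermediate cells, Pik3ap1 in DAM-like cells (3.39) and Syk in interferon-like cells (2.30). Thalamus set 3 was low for Hcst in intermediate cells (0.206). Without HPC set 1, the region contrast over microglia-like cells called 4 of the 8 genes in place of 1, while the share of all genes called went from 14.3% to 23.6%: Trem2 (edgeR adjusted p = 0.0072), Tyrobp (0.022), Syk (0.041) and Inpp5d (0.014).

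The difference between the regions was itself different between the DAM-like and homeostatic-like states for Trem2 (0.57 on the log2 scale) and Tyrobp (0.64), by the interaction term. These calls stood beside 0.686% of all genes, and neither held without Malat1-poor cells or with the log2 ratio limited to 2. Trem2 also missed without thalamus set 3.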

How the results depend on the processing

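Depth limited Hcst most: its DAM-like level in HPC sets 3 and 4 rested on 4 UMIs each. In the microglia-like region contrast, the 1 call among the 8 genes became 2 with DESeq2, 5 with the replicate block, 2 with total counts, 3 with at most 5% mitochondrial counts, 0 without Malat1-poor cells, 0 without the 5% of cells with most UMIs, 2 without cells holding macrophage markers and 0 to 4 on leaving out 1 set. Over all genes, 1873 calls became 3925 with the block and 810 to 3089 on leaving out 1 set. In the DAM-like contrast, 1 call (1.81%) became 2 with DESeq2 (1.16%), the block (3.16%), no filter (2.61%) and equal cell numbers (1.64%, with 7 of the 8 tested). On leaving out 1 set it was 0 to 2 (0.441% to 2.05%). The 170 calls over all genes became 296 with the block, 498 with no filter, 106 without the cells with most UMIs, 45 with equal cell numbers and 44 to 194 on leaving out 1 set. In the homeostatic-like contrast, the count over the 8 genes was 0 throughout, and 129 calls over all genes became 264 with DESeq2, 891 with the block, 201 with no filter, 260 with clusters and 37 to 599 on leaving out 1 set. In the state contrast, all 8 genes were called on leaving out any 1 set (47.1% to 53.7%). The 6109 calls over all genes became 3934 with a log2 ratio of at most 2 and 5425 to 6196 on leaving out 1 set. In the interaction, 2 calls (0.686%) became 0 without Malat1-poor cells (0.553%) and 0 with the ratio of at most 2 (0.359%). On leaving out 1 set they were 1 or 2 (0.389% to 1.97%). The 79 calls over all genes became 227 with no filter, 42 with the ratio of at most 2 and 45 to 228 on leaving out 1 set.

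None of the differences that changed sign passed the test. In the DAM-like contrast they were Hcst at −0.042 (5% mitochondrial counts), −0.085 (without Malat1-poor cells), −0.030 (stricter gate) and −0.36 (ratio of at most 2), Syk at 0.072 (without the cells with most UMIs), 0.068 (stricter gate) and 0.032 (ratio of at most 2), and Inpp5d at −0.029 (equal cell numbers). In the homeostatic-like contrast they were Plcg2 at −0.012 (no filter) and −0.018 (clusters) and Pik3ap1 at 0.0026 (clusters). In the interaction they were Syk at 0.0076 (no filter), 0.14 (without the cells with most UMIs), 0.18 (stricter gate) and 0.11 (ratio of at most 2), and Pik3ap1 at 0.013 (without Malat1-poor cells), 0.15 (stricter gate) and 0.091 (ratio of at most 2). On leaving out 1 set, sign changes lay within −0.16 to 0.025 for Pik3ap1 in all microglia-like cells, −0.035 to 0.57 for Hcst, −0.23 to 0.082 for Syk and −0.22 to 0.013 for Vav1 in DAM-like cells, −0.018 to 0.038 for Plcg2, −0.094 to 0.093 for Pik3ap1 and −0.011 to 0.053 for Vav1 in homeostatic-like cells, and −0.13 to 0.13 for Syk, −0.20 to 0.056 for Pik3ap1 and −0.21 to 0.0061 for Vav1 in the interaction. The cause was not tested. The stricter gate and the ratio limit leave out HPC set 3, which then has under 20 DAM-like cells. The cells with macrophage markers, the ratio limit and all alternatives for the interaction were chosen after seeing the data.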

Other observations

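Cycling microglia (128 cells, 119 of them thalamic), marked by genes such as Mki67 and Top2a, entered no comparison. Summed over both regions, their Trem2 level was 28.1 per 10,000 (95% exact Poisson interval 26.9 to 29.3) and their Tyrobp level 33.8 (32.5 to 35.2), beside 29.3 and 32.6 in DAM-like cells, and 52.3% of them were Malat1-poor. The 1286 cells that no class took held 8.55 per 10,000 of Trem2 and 14.0 of Tyrobp.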
